A study of Mus musculus with 11 samples.

Results

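The 9 genes described here belong to the myelin sheath and the cells that make it, and all 9 were found by symbol among the 32531 genes counted in each of 11 libraries. Mbp, Mobp, Cnp, Mag, Mog and Mal encode proteins of myelin. Pdgfra and Cspg4 encode surface proteins of oligodendrocyte precursors, and Olig1 encodes a transcription factor of the lineage. The rule that picks them is a list of symbols and uses no measured value, but the list was drawn up with earlier results of these data known.

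Oligodendrocytes arise from precursor cells that carry the platelet-derived growth factor receptor alpha and the proteoglycan NG2, and they wrap axons in a compacted membrane, myelin. Myelin basic protein holds the inner faces of that membrane together, while glycoproteins such as MAG and MOG lie on its inner and outer surfaces. In the cortex, myelin is densest around the axons of the deep layers. Oligodendrocytes are not the cells that these mice were made to tag.

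All libraries came from adult mice of the Glt25d2-TRAP DU9 line, which carry a ribosomal protein L10a fused to EGFP, driven by regulatory DNA of Glt25d2 (now Colgalt2). That driver is active in layer 5 pyramidal neurons, so the tag is meant to mark these neurons and not glia. Antibody to EGFP pulled down tagged ribosomes with the RNA they held, which is the IP fraction. Mice underwent saline self-administration, cocaine self-administration or a yoked control procedure, with 3 IP libraries (Rep 1, 2 and 3) in each of the 3 groups. A single input library of the saline group and 1 unbound library of the cocaine group, the RNA left after the pull-down, complete the set. The labels do not give the infusion of yoked mice, nor sex, nor whether a Rep number is a separate animal or a pool. The p-values therefore measure the spread between libraries, which may be technical. The tissue is labelled cerebral cortex, but the extraction text names the striatum. Summed over markers, 4 cortical excitatory neuron genes stood at 875 to 1066 CPM (counts scaled to a common library total) in the 9 IP libraries and 6 striatal projection neuron genes at 124 to 272 CPM, so both sets were present.

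Gene counts per library ran from 20926712 in the unbound library to 53862653 in saline IP 1. The 3 IP libraries numbered 1 stood apart from the other 6. The summed level of 8 layer 5 pyramidal tract markers was 1223 to 1417 CPM in them against 641 to 837 CPM in the others, with 692 CPM before the pull-down (input) and 703 CPM in unbound RNA. All 8 of these markers were higher in the libraries numbered 1 (edgeR quasi-likelihood test, adjusted p under 0.05, median log2 fold change 0.88). Reads outside annotated genes took 6.28 to 7.29% of the alignments in libraries numbered 1 and 10.3 to 15.5% in the other 6. Each treatment's IP libraries also shared 1 sequencing lane, and each Rep number shared 1 index across treatments, so treatment and lane, and Rep number and index, cannot be told apart. For this reason each member is given below by Rep number as well as by treatment.

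**Figure D1:**
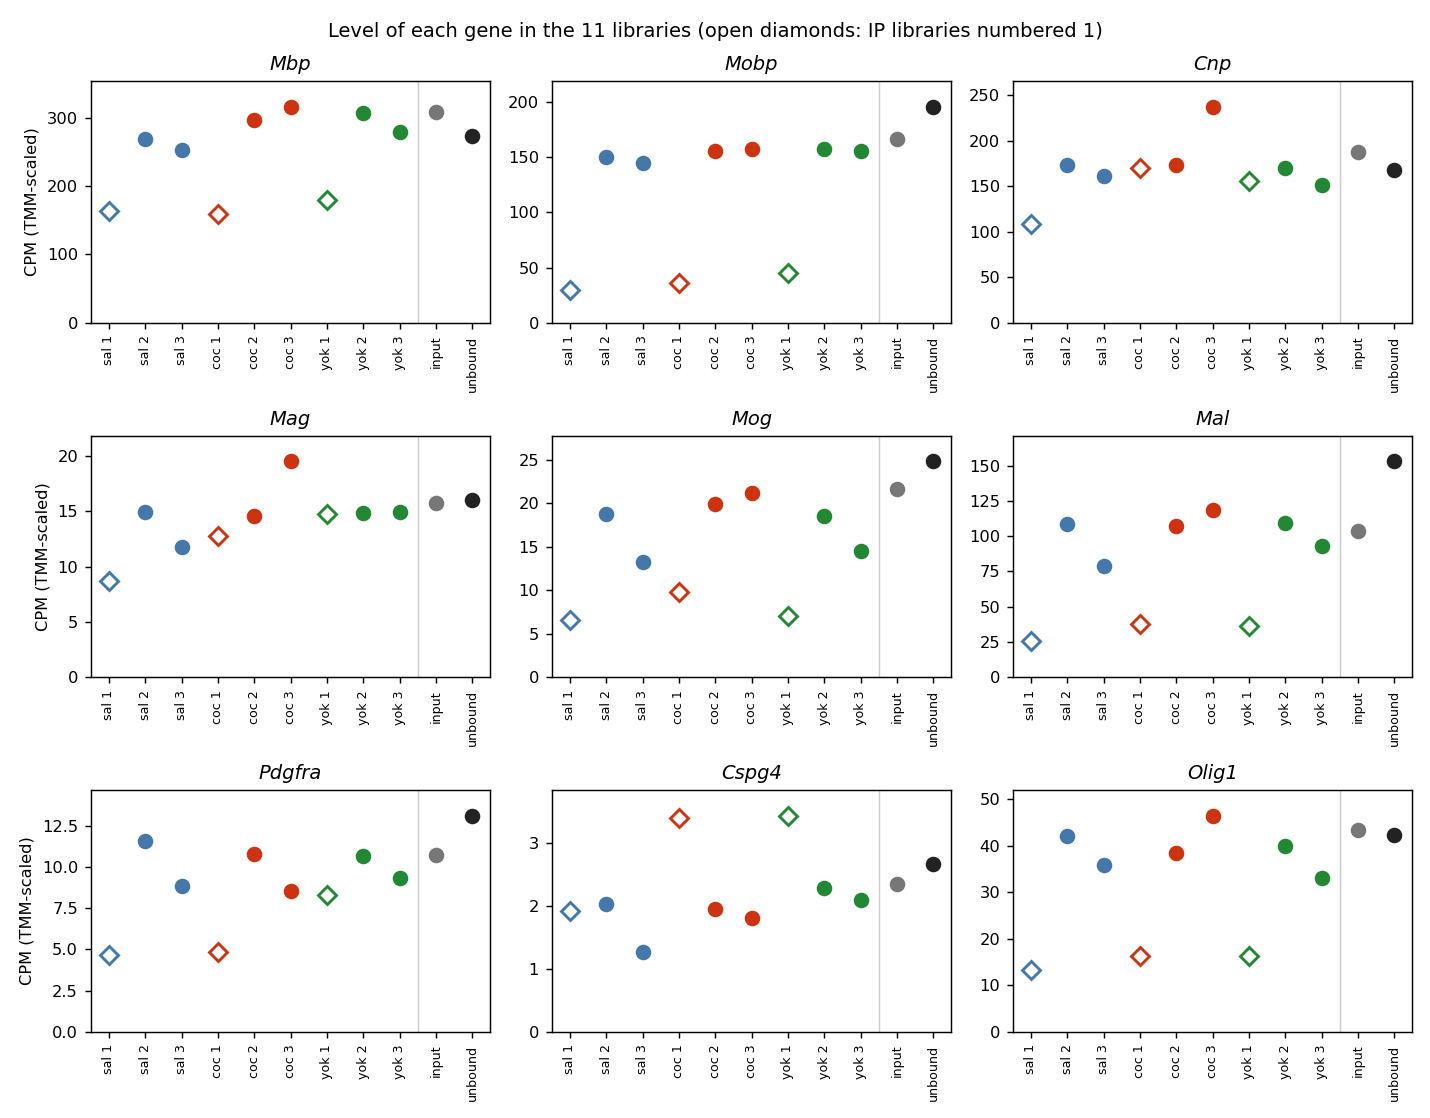
Level of each of the 9 genes in the 11 libraries, in TMM-scaled CPM on a linear axis from 0. Each point is 1 library, coloured by treatment or fraction, and open diamonds are the IP libraries numbered 1. The diamonds lie below every other IP library for Mbp, Mobp, Mog, Mal, Pdgfra and Olig1, and overlap with them for Cnp, Mag and Cspg4.

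Myelin and lineage transcripts were present in every IP library, and 6 of the 9 were lower in the libraries numbered 1 than in those numbered 2 and 3. In this fit 4550 of 16417 genes (27.7%) were lower by the same test, and 4533 (27.6%) were higher. The median log2 fold change was -0.78 over the 9 genes and 0.01 over all genes tested. In bulk IP libraries, the number of cells of a type, RNA per cell and RNA carried over from untagged cells cannot be told apart. None of these was tested. Levels below are CPM scaled by the trimmed mean of M values (TMM) over all 11 libraries, and the fold changes between Rep numbers come from the edgeR fit over the 9 IP libraries with treatment and Rep number as terms.

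Mobp, which encodes myelin-associated oligodendrocyte basic protein of compact myelin, had the largest difference of the 9. It lies at chr9:120149707-120181484 on the plus strand (GRCm38) and shares 79 exon bases (1.15% of its exon length) with Gm38642 on the same strand. In saline libraries 1, 2 and 3 it measured 29.5, 150.4 and 144 CPM. The cocaine libraries gave 36.2, 156 and 157 CPM in the same order, and the yoked libraries 44.8, 157 and 155 CPM. The input held 166 CPM and the unbound library 195 CPM. Every library numbered 1 was therefore far below all 8 others, and the other 6 IP libraries lay within a narrow band. The fall was 4.21-fold, a log2 fold change of -2.07 ± 0.12 (SE, n = 3 against 6, edgeR adjusted p = 1.38e-08).

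Mal encodes a tetraspan proteolipid that sorts cargo to myelin membranes (chr2:127633226-127656695, minus strand). Its level in saline libraries 1, 2 and 3 was 25.8, 108 and 78.9 CPM. Cocaine libraries had 38.1, 107 and 118 CPM, and yoked libraries 36.2, 109.6 and 92.9 CPM. The 3 low values were again those numbered 1, with no overlap. The difference was 3.10-fold lower, -1.63 ± 0.13 on the log2 scale (edgeR adjusted p = 1.69e-07). At 153 CPM the unbound library was above all 9 IP libraries and above the input, at 104 CPM.

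Mog, the gene of the glycoprotein on the outermost myelin surface (chr17:37010743-37023398, minus strand), was less abundant. It measured 6.59, 18.8 and 13.2 CPM in saline, 9.76, 19.9 and 21.2 CPM in cocaine and 7.04, 18.6 and 14.5 CPM in yoked libraries 1, 2 and 3. Input and unbound RNA held 21.6 and 24.8 CPM, above every IP library. The libraries numbered 1 were 2.28-fold lower (log2 fold change -1.19 ± 0.14, edgeR adjusted p = 7.67e-06) and did not overlap the other 6.

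Mbp, whose product compacts the cytoplasmic faces of myelin, lies at chr18:82475146-82585637 on the plus strand. It had the highest mean CPM of the 9 in IP RNA. The saline libraries gave 163, 269 and 252 CPM, the cocaine libraries 159, 296 and 316 CPM, and the yoked libraries 179, 307 and 279 CPM. No library numbered 1 reached the level of any other IP library. The difference was smaller than for Mobp at 1.71-fold lower (log2 fold change -0.78 ± 0.11, edgeR adjusted p = 2.66e-05). Input RNA held 309 CPM and unbound RNA 274 CPM.

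Cnp and Mag did not pass the test. Cnp encodes the phosphodiesterase of non-compact myelin, and lies at chr11:100574904-100591729 on the plus strand. It shares 154 exon bases (4.23% of its exon length) with Dnajc7 on the other strand, and whether the counting used strand was not given, so its counts are uncertain to that extent. Cnp measured 109, 173 and 161 CPM in saline, 170.2, 173 and 237 CPM in cocaine and 156, 169 and 151 CPM in yoked libraries. Saline 1 was the lowest of the 9, while cocaine 1 and yoked 1 lay among the libraries numbered 2 and 3. Its log2 fold change was -0.30 ± 0.13 (edgeR adjusted p = 0.0656). Mag, the adhesion glycoprotein of the innermost myelin layer next to the axon (chr7:30899176-30914873, minus strand), gave 8.69, 14.9 and 11.7 CPM in saline, 12.8, 14.6 and 19.5 CPM in cocaine and 14.7, 14.9 and 14.9 CPM in yoked libraries. Again only saline 1 lay below the others, and the groups overlapped (-0.34 ± 0.16, edgeR adjusted p = 0.0734). DESeq2 placed both under the threshold, at adjusted p = 0.0334 for Cnp and 0.0494 for Mag, so for these 2 genes the call depends on the tool. By edgeR both passed without cocaine 2 (adjusted p = 0.0165 and 0.0418) or yoked 1 (0.0255 and 0.0245), and Cnp also passed without yoked 3 (0.0351).

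Olig1, a basic helix-loop-helix factor of the oligodendrocyte lineage, is a single-exon gene (chr16:91269772-91271933, plus strand). Its exon shares 157 bases (7.26%) with the antisense transcript Gm15966. Levels in saline libraries 1, 2 and 3 were 13.3, 42.2 and 35.8 CPM. Cocaine libraries gave 16.2, 38.5 and 46.4 CPM and yoked libraries 16.3, 40.02 and 33.0 CPM. The 3 libraries numbered 1 lay close to each other and well below the other 6. Olig1 was 2.58-fold lower in them (log2 fold change -1.37 ± 0.13, edgeR adjusted p = 1.14e-06).

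Pdgfra, the growth factor receptor of precursor cells (chr5:75152292-75198215, plus strand), measured 4.67, 11.6 and 8.81 CPM in saline, 4.83, 10.8 and 8.53 CPM in cocaine and 8.28, 10.7 and 9.33 CPM in yoked libraries. Yoked 1 was only just below the lowest library numbered 2 or 3, cocaine 3. Pdgfra shares 456 exon bases (4.55%) with the antisense transcript Gm42802, 166 (1.66%) with Gm42803 on the other strand and 30 (0.30%) with Mir7025 on the same strand. Pdgfra was 1.71-fold lower in libraries numbered 1 (log2 fold change -0.77 ± 0.17, edgeR adjusted p = 0.00158). It is also made by fibroblasts, and 3 of 4 fibroblast markers were lower in the libraries numbered 1. Their summed level was 3.99 to 9.86 CPM in those libraries and 6.91 to 9.84 CPM in the other IP libraries, and Lum and Col1a2 were lower while Dcn did not pass the test (log2 fold changes -1.75, -2.12 and 0.38). The part of fibroblasts in the Pdgfra value was not tested.

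Cspg4, the gene of the NG2 proteoglycan (chr9:56865033-56899870, plus strand), went the other way. It rested on few reads, 48 to 140 counts per IP library. Saline libraries gave 1.92, 2.03 and 1.27 CPM, cocaine libraries 3.40, 1.95 and 1.80 CPM and yoked libraries 3.43, 2.28 and 2.08 CPM. Cocaine 1 and yoked 1 were the 2 highest, while saline 1 lay inside the range of the others. Cspg4 was 1.51-fold higher in libraries numbered 1 (log2 fold change 0.59 ± 0.22, edgeR adjusted p = 0.0362). The call was lost under DESeq2 (adjusted p = 0.0503) and when any single library other than saline 1 or saline 2 was left out (edgeR adjusted p between 0.0507 and 0.185). Over the fits without 1 library the log2 fold change lay between 0.46 and 0.76. NG2 is also made by pericytes. Of 6 pericyte markers 4 were lower in libraries numbered 1 and none was higher, with a summed level of 7.15 to 11.6 CPM there against 16.4 to 21.2 CPM in the other IP libraries. Among the 3 most abundant of them, Rgs5 and Vtn were lower and Pdgfrb did not pass the test (log2 fold changes -1.34, -1.05 and -0.63). The part of pericytes in the Cspg4 value was not tested.

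**Figure D2:**
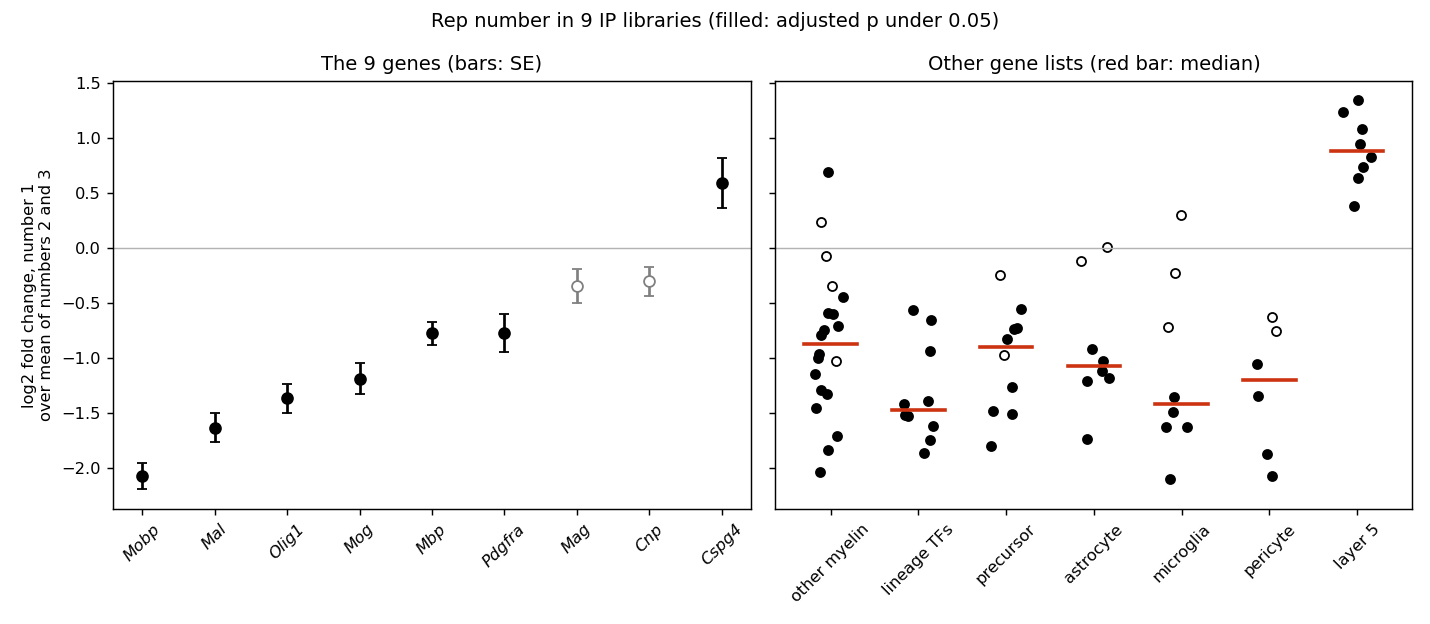
Log2 fold change of the IP libraries numbered 1 over the mean of those numbered 2 and 3, from edgeR, for the 9 genes (left, bars are SE) and for 7 other gene lists (right, 1 point per gene, red bars are medians). Filled points have an adjusted p under 0.05. Mobp lies lowest of the 9 genes at -2.07 and Cspg4 highest at 0.59, while all 8 layer 5 markers lie above 0.

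Without overlap between libraries, 6 of the 9 genes had all 3 libraries numbered 1 below all 6 others, where 23.9% of genes tested did, and 0 of 9 had them all above, where 22.5% did. The same 6 genes kept an adjusted p under 0.05 in each of the 9 fits that left out 1 library. The numbers 2 and 3 did not separate these genes. None of the 9 passed the edgeR test of number 3 over number 2, where 0% of genes did so. No member and 320 of 16417 genes had an unadjusted p under 0.05, and DESeq2 called 8 genes and no member. Mobp had a log2 fold change of -0.03 ± 0.13 between these numbers, and its log2 levels had an SD of 0.05, the smallest of the 9, over the 6 libraries numbered 2 and 3, against a median of 0.19 over all genes tested.

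Because the 9 genes did not move by the same amount, their ratios within a library differed. Raw counts of Mobp were 27.1, 21.3 and 28.7% of those of Cnp in saline 1, cocaine 1 and yoked 1. In the other 6 IP libraries the share ran from 66.3 to 103%, while the input gave 88.7% and unbound RNA 116%. A ratio of 2 genes within a library does not depend on the scaling between libraries. Mag kept a like share of Cnp throughout, at 7.50 to 9.45% in libraries numbered 1 and 7.27 to 9.88% in the other IP libraries. Counts of Pdgfra were 142 to 243% of those of Cspg4 in libraries numbered 1 and 448 to 696% in the other 6, with 459% in the input. Neither Mobp over Cnp nor Pdgfra over Cspg4 overlapped between the 2 sets of IP libraries, and nor did Mobp over Mbp. Mbp over Cnp did overlap, at 93.4 to 150% in libraries numbered 1 and 133 to 185% in the other 6. Mobp fell most of the 9 and Cspg4 alone was higher, so these separations largely restate the fold changes given above. How often other pairs of genes would separate the libraries in this way was not tested.

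**Figure D3:**
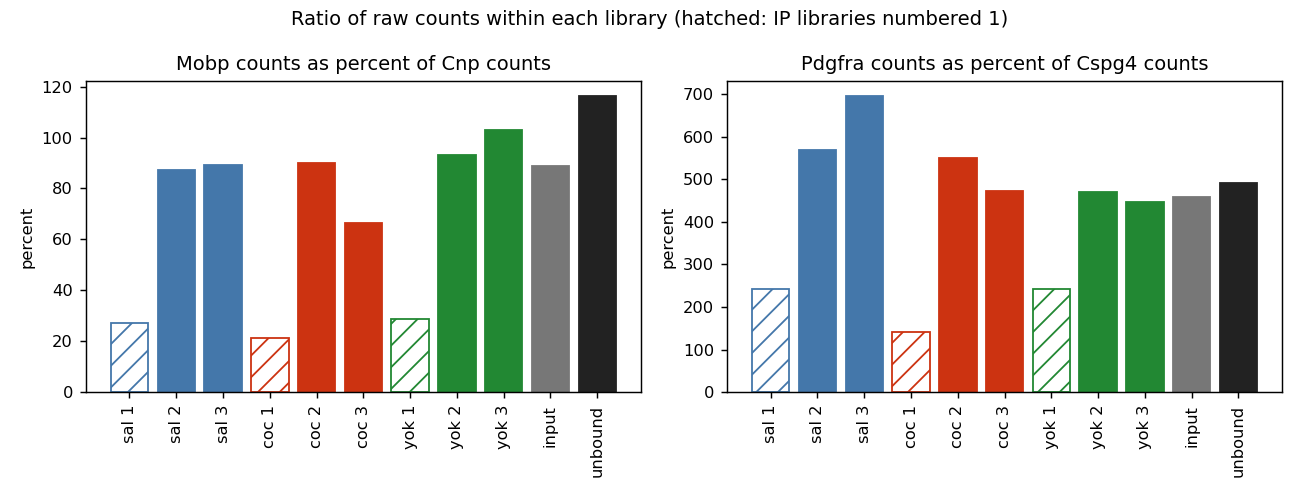
Raw counts of Mobp as a percent of those of Cnp (left) and of Pdgfra as a percent of those of Cspg4 (right) in each of the 11 libraries, on linear axes from 0. Hatched bars are the IP libraries numbered 1, at 21.3 to 28.7% (left) and 142 to 243% (right), below all other libraries in both panels.

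Per kilobase of exon (GENCODE M21 on GRCm38, which may differ from the annotation behind the counts), the order of the genes also shifted. Exon length here merges the exons of all annotated transcripts, 16 for Mbp (8469 bases) and 2 for Mal (2778 bases). The lengths of the transcripts present were not measured, so the order need not be that of transcript number. In IP libraries numbered 2 and 3 the median level was 47.0 CPM per kb for Cnp, 38.8 for Mal, 34.0 for Mbp, 22.7 for Mobp and 18.2 for Olig1. Mog followed at 10.9, Mag at 3.66, Pdgfra at 0.999 and Cspg4 at 0.167 CPM per kb. Over these 6 libraries the ranges of Cnp and Mal, of Mal and Mbp, and of Mobp and Olig1 overlapped, and the other neighbours in the order did not. In libraries numbered 1 the medians ran Cnp 42.8, Mbp 19.3, Mal 13.0, Olig1 7.50, Mobp 5.29, Mog 4.13, Mag 3.14, Pdgfra 0.482 and Cspg4 0.285 CPM per kb. Mal stood below Mbp there with no overlap (9.30 to 13.7 against 18.8 to 21.2 CPM per kb), and Mobp overlapped both Olig1 and Mog.

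Promoter sequence is shown for a pair of myelin genes that were lower in the libraries numbered 1 (Mobp and Mog) and the pair that did not pass the test (Cnp and Mag). The RefSeq promoter table (GRCm38.p6) matched 7 of the 9 genes. Distances are counted back from the RefSeq transcript start of each window, which for Mobp and Cnp lies inside the GENCODE gene, so their stretches run from 250 to 36 bases before it. Mag has 3 windows in the table, from different RefSeq starts, and the one printed begins farthest upstream. The stretches printed end before the GENCODE gene start, read 5′ to 3′ on the gene's strand, and carry in capitals any match on either strand to ACAAAG (the core bound by Sox factors) or to CTGGCAC or CTGGTAC (cores bound by the myelin factor Myrf).
Mobp, chr9:120149492-120149706, plus strand: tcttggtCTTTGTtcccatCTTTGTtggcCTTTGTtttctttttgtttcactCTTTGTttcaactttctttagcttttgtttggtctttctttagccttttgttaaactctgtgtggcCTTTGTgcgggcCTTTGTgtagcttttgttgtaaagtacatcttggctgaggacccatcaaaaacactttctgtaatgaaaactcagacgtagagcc
Cnp, chr11:100574689-100574903, plus strand: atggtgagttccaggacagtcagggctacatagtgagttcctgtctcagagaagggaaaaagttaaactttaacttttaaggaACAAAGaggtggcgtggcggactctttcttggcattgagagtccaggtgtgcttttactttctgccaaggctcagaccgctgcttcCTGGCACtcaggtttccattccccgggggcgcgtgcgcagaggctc
Mag, chr7:30914923-30915172, minus strand: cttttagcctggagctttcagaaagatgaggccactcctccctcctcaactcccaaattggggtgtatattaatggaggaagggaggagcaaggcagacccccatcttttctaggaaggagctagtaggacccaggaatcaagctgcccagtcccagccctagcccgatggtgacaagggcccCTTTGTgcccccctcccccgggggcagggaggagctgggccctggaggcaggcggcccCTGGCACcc
Mog, chr17:37023399-37023648, minus strand: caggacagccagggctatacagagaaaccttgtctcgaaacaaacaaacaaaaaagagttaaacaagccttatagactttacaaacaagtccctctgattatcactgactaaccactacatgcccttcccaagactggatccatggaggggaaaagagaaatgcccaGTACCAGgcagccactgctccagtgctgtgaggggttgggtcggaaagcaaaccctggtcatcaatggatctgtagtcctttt
The Mobp stretch held 6 matches to the Sox core, all as CTTTGT, at 243, 231, 221, 198, 132 and 120 bases before the RefSeq start. Of 32851 windows of the 250 bases before a start in the table, 1 (0.00304%) held at least 6. That 1 is the Mobp window itself, whose own count set this cut-off, so the share tests nothing about Sox sites. At least 1 Sox core stood in 16.5% of the windows and in those of Cnp and Mobp. In Mag it stood in the printed window and in a second one that overlaps it, and the third Mag window held none of the motifs. Cnp and the printed Mag window also held CTGGCAC, at 81 and 9 bases before their RefSeq starts (68 bases from the start of the overlapping Mag window), which 4.19% of windows did. Mog held CTGGTAC, in its reverse form GTACCAG at 83 bases, as did 1.83% of windows. Neither CAGCTG (an E-box of the kind bound by Olig2, in 13.0% of windows) nor the TATA box TATAAA (12.4%) occurred in the members' windows. The Sox core was in the printed stretches of Cnp, Mag and Mobp although Mobp alone of these was lower by the test. Windows of Mal, Pdgfra and Cspg4 are not printed and held none of the motifs, although Mal and Pdgfra were also lower. These matches describe letters, not binding.

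The other genes of the oligodendrocyte lineage were lower in the libraries numbered 1 in most cases. Of 20 other myelin protein and lipid genes, 15 were lower and 1 was higher, with a median log2 fold change of -0.88. Tspan2, a tetraspanin of the lineage, was lower (log2 fold change -2.03). Omg, the oligodendrocyte myelin glycoprotein that neurons also make, was the 1 that was higher (0.69). All 10 lineage transcription factors were lower, with a median of -1.47, among them the regulator of myelin genes Myrf at -1.86, Zfp536 at -1.42 and Sox8 at -0.57. Of 10 genes of precursors and newly formed oligodendrocytes, 8 were lower and none was higher. Gpr17 of newly forming cells and Lhfpl3 of precursors were lower (-1.26 and -0.56), and Tnr did not pass the test (-0.24).

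Markers of other glia moved with them. Astrocyte markers were lower for 6 of 8 genes, with a summed level of 964 to 1365 CPM in libraries numbered 1 and 2253 to 2852 CPM in the other IP libraries. Microglia markers were lower for 5 of 8, with 14.1 to 21.9 CPM against 27.2 to 40.3 CPM. None of either list was higher. Of 6 striatal projection neuron markers 3 were lower and none was higher, with 124 to 178 CPM against 228 to 272 CPM. Of 4 cortical excitatory neuron markers 1 was lower and 1 was higher. What part the makeup of the libraries had in the values of the 9 genes was not tested.

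Treatment did not separate the 9 genes. None passed the edgeR test for cocaine over saline, yoked over saline or cocaine over yoked, and 0% of the 16417 genes did in each. An unadjusted p under 0.05 was reached by no member and by 168, 66 and 182 genes (1.02, 0.402 and 1.11%), and DESeq2 called no gene. Mobp means were 108 ± 68.1 CPM in saline, 116 ± 69.4 CPM in cocaine and 119 ± 64.5 CPM in yoked libraries (SD, n = 3 each), so the spread within a group was many times the gap between groups. Its log2 fold change for cocaine over saline was 0.12 ± 0.73 (SE), with an approximate 95% interval from -1.32 to 1.56. For Cnp the means were 148 ± 34.1, 193 ± 37.8 and 159 ± 9.51 CPM, and cocaine over saline was 0.40 ± 0.22 (interval -0.03 to 0.83). The other myelin genes Mag, Mog and Mal had similar values for cocaine over saline, 0.42 ± 0.24, 0.41 ± 0.47 and 0.32 ± 0.61 in that order.

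Of the 9 genes, 8 had a value above 0 for cocaine over saline and 8 for yoked over saline, with medians of 0.32 and 0.16 against 0.03 and 0.00 over all genes tested. These comparisons share the saline libraries. Without saline 1, which had the lowest IP level of 7 of the 9 genes and the second lowest of Mbp, the number above 0 became 4 and 2 and the medians became -0.01 and -0.12. Without all 3 libraries numbered 1 they were 8 and 6, with medians of 0.24 and 0.08. For cocaine over yoked, 6 of 9 lay above 0 with a median of 0.09. Without overlap, 0 of 9 genes were higher and 0 lower in cocaine than in saline libraries, where 2.78 and 2.66% of genes were. Cspg4 was higher in every yoked than in every saline library, as 2.1% of genes were, by a margin of 2.08 over 2.03 CPM at the nearest. Cnp was higher in every cocaine than in every yoked library, as 2.75% of genes were, with 170.2 and 169 CPM the nearest values, and none of the 9 was lower (2.92%).

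With Rep number as a block, the median SE of the 9 genes for cocaine over saline went from 0.37 to 0.15, and still no gene passed. Mog was 0.46 ± 0.15, Mag 0.43 ± 0.18, Cnp 0.42 ± 0.15 and Mal 0.39 ± 0.14, the 4 of 9 with an unadjusted p under 0.05, as were 12.3% of genes tested. Their lowest adjusted p by edgeR was 0.377. For yoked over saline 0 of 9 reached that level (3% of genes), and for cocaine over yoked only Mog did (0.40 ± 0.15, 18.3% of genes, edgeR adjusted p = 0.199). Taken number by number, Mobp and Mog were higher in cocaine than saline within all 3 numbers, as 17.7% of genes were, and none was lower within all 3 (17.5%). Mog differed by 0.56, 0.08 and 0.68 on the log2 scale in numbers 1, 2 and 3, and Mobp by 0.29, 0.05 and 0.12. In number 2 the median of the 9 genes was -0.02 with 3 above 0, while in numbers 1 and 3 it was 0.55 and 0.49 with 8 above 0 in each. Mbp, Mobp, Mal and Cspg4 were higher in yoked than saline within all 3 numbers (16.6% of genes). In cocaine over yoked, Cnp and Mog were higher (17.4%) and Cspg4 was lower (18.7%) within all 3.

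**Figure D4:**
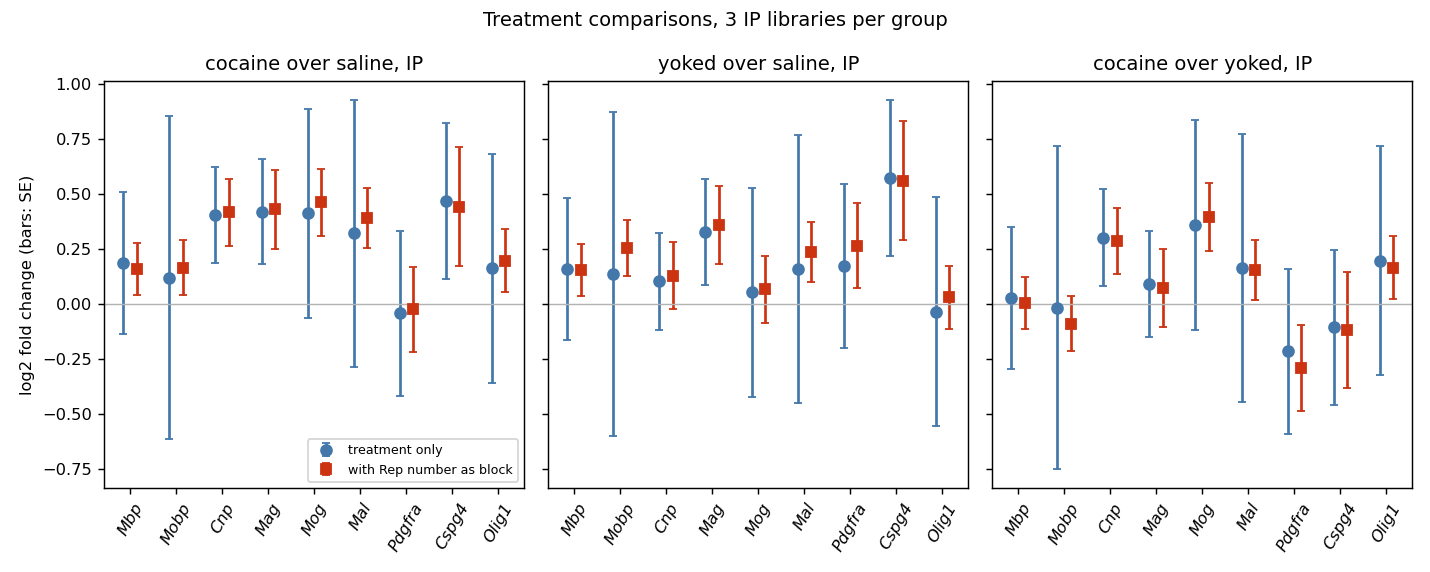
Log2 fold change of the 9 genes for cocaine over saline, yoked over saline and cocaine over yoked in IP libraries, from edgeR with treatment alone (circles) or with Rep number as a block (squares), bars are SE. No value passed the test in either fit, and the block narrowed the bars from a median SE of 0.37 to 0.15.

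Set against RNA before the pull-down (input) or left after it (unbound), the 9 genes did not differ by a fixed amount. In saline IP 1 all 9 were below the saline input, and 5 (Mobp, Mog, Mal, Pdgfra and Olig1) were at least 2-fold lower, where 11.3% of 13478 genes were. In saline IP 2 and 3 none was 2-fold lower (0.26 and 0.631% of genes). Mobp stood at -2.49, -0.13 and -0.21 on the log2 scale in the 3 libraries, and Mal at -2.01, 0.08 and -0.41. All 3 saline IP libraries lay below the input for 7 of 9 genes (17.6% of genes), the exceptions being Mal and Pdgfra. No gene of the 9 was 2-fold lower in all 3 (0.0445% of genes). The single input library allows no estimate of its own error, and no other library of this series is labelled lane 7.

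Cocaine IP over the cocaine unbound library gave a like picture. That single library, labelled lane 1, had 7.34% of alignments ambiguous between genes, against 1.56 to 1.91% in all other libraries. Alignments that were not unique took 28.3% in it and 35.6 to 47.0% in the others. What part these differences had in the ratios was not tested. In cocaine IP 1, Mobp, Mog, Mal, Pdgfra and Olig1 were at least 2-fold lower (16.7% of 13527 genes), and in cocaine IP 2 and 3 none was (4.01 and 5.34%). Mobp, Mog, Mal and Pdgfra lay below the unbound library in all 3, as 25.7% of genes did, and 0 of 9 were 2-fold lower in all 3 (2.21%). Their log2 ratios were -2.50, -0.40 and -0.37 for Mobp, -1.41, -0.39 and -0.28 for Mog, -2.08, -0.58 and -0.42 for Mal and -1.50, -0.35 and -0.67 for Pdgfra. Cnp and Mbp were near the unbound level in cocaine IP 2 and above it in cocaine IP 3 (0.44 and 0.15). An edgeR fit over all 11 libraries, chosen after seeing the data, called none of the 9 in either comparison. Over all genes it called 0 against the input, and against the unbound library 2 higher (0.0111%) and 8 lower (0.0443%), with 106 and 1870 genes at an unadjusted p under 0.05.

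**Figure D5:**
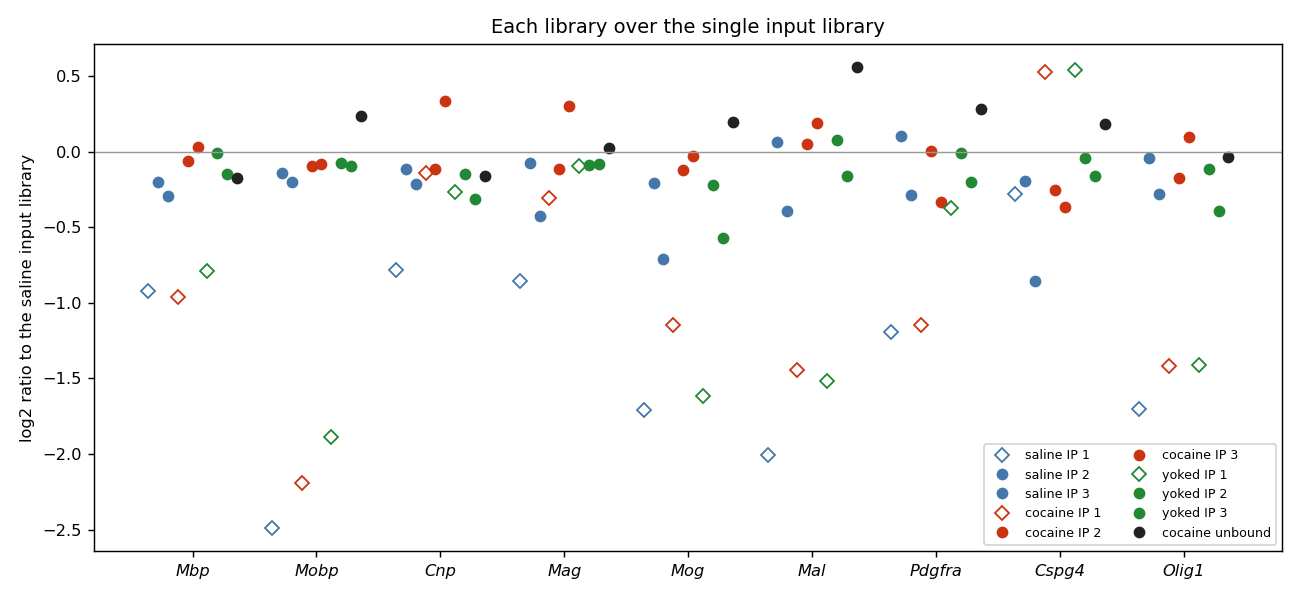
Log2 ratio of each IP library and of the unbound library to the single saline input library for the 9 genes, 1 point per library, with open diamonds for IP libraries numbered 1. For Mobp the diamonds lie at -2.49, -2.19 and -1.89 and the other IP libraries between -0.20 and -0.08.

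With all 11 libraries scaled together and set against the single input, the 9 genes had a median log2 ratio of -1.19 in saline 1, -1.14 in cocaine 1 and -0.79 in yoked 1. In the 6 other IP libraries the median lay between -0.29 and 0.03. For Mobp, Olig1, Mal and Mog the depletion in each library numbered 1 was at least 2-fold in all 3 treatments, and Cspg4 was above the input in cocaine 1 and yoked 1 (0.53 and 0.54).

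Among 8801 genes compared, those whose profile over the 9 IP libraries was nearest to the mean profile of the 6 myelin protein genes were Plekhb1, Pla2g16, Chn2, Spsb1 and Psd2. Their root-mean-square differences were 0.08, 0.09, 0.09, 0.10 and 0.11 on the log2 scale. Of the 9 genes, Mog (0.16), Olig1 (0.17) and Mbp (0.18) were closest to that mean, and Cspg4 was farthest (0.80). Mog and Mbp are themselves part of that mean, and Olig1 and Cspg4 are not. For the mean profile of Pdgfra and Cspg4 the nearest were Sowahb, Cdh4 and Ankrd13a, at 0.14, 0.16 and 0.16. Pdgfra and Cspg4 went opposite ways by Rep number, so this mean is a profile that neither gene has.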

How the data were processed

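Ribosome-bound RNA was sequenced from 9 IP libraries, with 1 input and 1 unbound library. The authors deposited raw whole-number counts per gene for each library. Per the submitters' processing notes, STAR 2.0.0e, HTSeq and the build mm10 were used. The HTSeq version, annotation and strand setting were not given in the sources used here. Of 32537 entries, 6 name no gene and were left out. Gene entries took 44.9 to 52.5% of all counted alignments, and alignments that were not unique 28.3 to 47.0%. Ribosomal Rn45s held 3.62 to 8.00% of gene counts.

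The 9 members and all other gene lists were chosen with earlier results of these data known. Tests within the 9 IP libraries ran on the whole table of 16417 genes kept by edgeR's filterByExpr, with edgeR 4.0.16 (R 4.3.3), TMM scaling, robust quasi-likelihood tests and Benjamini-Hochberg adjustment at 0.05. Treatment comparisons used treatment alone, and Rep number comparisons used treatment and number. Ratios to the input or unbound library used TMM over 4 libraries, a prior count of 2 and a mean of at least 1 CPM, which left 13478 and 13527 genes, and were called only where all 3 IP libraries passed 2-fold. The added edgeR fit over 11 libraries kept 18070 genes. The fit was tested first on simulated data, with the same spread for all genes and no Rep number effect in the treatment design. That test does not show how many true treatment differences would be found in the real libraries. DESeq2 1.42.0, other scalings and filters, the Rep number as a block and leaving out libraries were alternatives.

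The Rep numbers, taken from the sample titles, were treated as pairing the libraries. Deviations from group means correlated at r = 0.377 to 0.795 in all 9 same-number pairs, over 0.1 in each, and at -0.74 to 0.621 in other pairs. Number 1 stood apart in each group, which pushes the deviations of numbers 2 and 3 to the same side. Pairs of a number 2 with a number 3 gave 0.37 to 0.621, and pairs of number 3 gave 0.377 to 0.479. Of 9 libraries, 6 correlated best with their own number. A pairing that separates numbers 2 and 3 was therefore assumed, not shown. No pair of IP libraries within a treatment was a duplicate by a chi-square comparison, and other pairs were not compared. Named genes are the 9 members, the 2 or 3 genes of each list with the highest mean CPM, and the genes nearest in profile among those with a mean of at least 10 CPM. Some genes that this rule names are not reported here. Promoters came from RefSeq (GRCm38.p6). Depth limits Cspg4 most, and counts carry counting error beside the spread between libraries. Figures used matplotlib 3.10.9.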

Additional observations from a re-analysis of the deposited data

How the results depend on the processing

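The 6 genes lower in libraries numbered 1 stayed so in all alternatives tried for that comparison. Its genes called ran from 7837 to 8774 and its members called from 6 to 8 when 1 library was left out. Without the filter, the median of all genes moved to -0.12 and 7 members were lower. Genes called for number 3 over number 2 were 8 with DESeq2, 8 without the filter and 0 to 7 with 1 library left out, where cocaine replicate 1 gave 7 and cocaine replicate 3 gave 3. The cause was not tested. The replicate block changed no call, and for yoked over saline turned Olig1 to 0.030. Without all libraries numbered 1, log2 fold changes turned for Cnp (-0.068) and Pdgfra (-0.034) in yoked over saline and for Mobp (0.019) in cocaine over yoked.

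With 1 library left out in turn, log2 fold changes crossed 0 for several genes, none of which was called. For cocaine over saline these were Mal (-0.079 to 0.74), Mbp (-0.0069 to 0.44), Mobp (-0.33 to 0.55), Olig1 (-0.20 to 0.50) and Pdgfra (-0.33 to 0.25). For yoked over saline they were Cnp (-0.077 to 0.22), Mal (-0.24 to 0.59), Mbp (-0.036 to 0.36), Mobp (-0.31 to 0.53), Mog (-0.27 to 0.42), Olig1 (-0.39 to 0.27) and Pdgfra (-0.12 to 0.47). In cocaine over yoked the genes were Cspg4 (-0.45 to 0.15), Mag (-0.11 to 0.22), Mal (-0.18 to 0.52), Mbp (-0.17 to 0.28), Mobp (-0.41 to 0.41), Olig1 (-0.12 to 0.53) and Pdgfra (-0.50 to 0.047). Between numbers 3 and 2 they were Cnp (-0.093 to 0.20), Mag (-0.15 to 0.23), Mbp (-0.14 to 0.0045), Mobp (-0.082 to 0.044) and Olig1 (-0.22 to 0.036).

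No treatment comparison gained a call in any alternative. Few reads limit Cspg4, and 1 library each limits input and unbound comparisons.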
